A study of Mus musculus with 8 samples.

Results

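The NRF2 antioxidant and glutathione genes are 10 genes whose expression was compared between control libraries and libraries that the labels call control plus tranilast. They were found by symbol in the deposited table, which holds 22063 mouse genes, and all 10 symbols were present in a single row each. RNA-seq had been carried out on 8 libraries, 4 per group, with the aim of finding how tranilast, an anti-allergic drug, acts in the liver of HFHC-fed mice. The labels give wild-type genotype and liver for every library, and "Control" or "Treatment" as the treatment. Diet, strain and sex are not in the labels. The series design places both groups on a high-fat and high-cholesterol diet, and the study's methods name male C57BL/6J mice, young adults when they entered the study, given daily oral Na-CMC vehicle or tranilast during the later part of the diet. Which of the doses in the methods the sequenced mice received, and whether a library stands for 1 mouse, is not given in the sources used here, so that the p-values measure only the spread between these libraries.

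NRF2, encoded by Nfe2l2, is a transcription factor that the adaptor KEAP1 holds in the cytosol and hands to a CUL3 ubiquitin ligase. When electrophiles or oxidants modify cysteines of KEAP1, newly made NRF2 escapes degradation, pairs with a small MAF protein and binds the antioxidant response element of its target genes. These targets make and recycle glutathione and thioredoxin, reduce quinones and break down heme. In the liver the system is known for detoxification, and in macrophages for the breakdown of heme and for restraint of inflammatory gene expression. NRF2 is controlled mainly through the stability of the protein, which transcript levels do not measure.

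The libraries held few transcripts of hepatocytes. Library totals ranged from 14585153 to 15618787 counts for control and from 12053036 to 14679386 counts for tranilast. The 9 hepatocyte markers together never exceeded 0.000191% of a library's total, and Alb, which encodes serum albumin, had between 0 and 2 counts. The 9 macrophage markers held 0.906% to 0.96% in the control libraries and 0.884% to 0.943% in the tranilast libraries. Of these, Mrc1 and Mertk were near 0, and the Kupffer cell markers Clec4f, Vsig4 and Timd4 were at 0 in every library. Marker lists of stellate cells, endothelial cells, cholangiocytes, neutrophils and lymphocytes held at most 9.96e-05% each. These markers go against the liver label, so that the labelled tissue of all 8 libraries is in doubt, and with it the HFHC-fed liver that the series design names. The values below therefore describe the libraries under their group labels and cannot be assigned to hepatocytes, and in bulk RNA fewer cells of a type and less RNA per cell cannot be told apart. Single macrophage markers differed more than their summed share. Fcgr1, which encodes an Fc receptor, fell from 97.9 ± 18.9 to 36.5 ± 5.24 CPM (mean ± SD, n = 4 each), a log2 fold change of -1.42 (edgeR adjusted p = 5.1e-09), which exceeds in size that of each of the 9 genes tested below. Itgam, an integrin of myeloid cells, had -0.28, and the other 5 tested markers lay between -0.16 and 0.21. The part of these differences in the results below was not tested.

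Promoter sequences, credited to RefSeq on GRCm38.p6, were searched for the core of the antioxidant response element. The search was chosen after most of the genes that are known NRF2 targets were seen to rise. The motif was TGACNNNGC, where N is any base, read on both strands. Its TGAC letters also occur in sites of AP-1 and of CREB and ATF factors. Each window ran from 250 bases before to 50 bases after an annotated start. Windows were on hand for 7 of the 10 genes, and those of 4 genes held a match, namely Nfe2l2, Gclm, Txnrd1 and Srxn1. Of the 9 windows of these 7 genes, 4 held one. Of all 32851 windows in the table, 12.4% held one, and of all 27025 genes with a window, 14.0%. These shares were not compared by a test, and a gene with several windows, such as Txnrd1, has more chances of a match. Binding of NRF2 was not tested. The windows of Keap1, Slc7a11 and Nqo1 held no match, which says only that these letters are absent from those windows. Hmox1, Gclc and Gsr were not searched. Of the 9 windows, only that of Nfe2l2, chr2:75704614-75704913, had bases after its start that were not found in a GENCODE M21 transcript of the gene. Its annotated start lies outside the GENCODE M21 bounds of Nfe2l2, which end at 75704641. Counted from those bounds, the match lies farther from the gene than the distance given below. The 4 matches are shown 5′ to 3′ on the strand of the gene, with the motif or its reverse complement in capitals and 10 bases on either side.
Nfe2l2, chr2:75704885-75704913, minus strand, motif on the strand of the gene, beginning 240 bases before the start: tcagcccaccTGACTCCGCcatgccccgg
Gclm, chr3:122245413-122245441, plus strand, reverse complement, beginning 134 bases before the start: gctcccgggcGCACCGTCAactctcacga
Txnrd1, chr10:82859104-82859132, plus strand, reverse complement, beginning 92 bases before the second of 3 annotated starts: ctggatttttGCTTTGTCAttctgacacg
Srxn1, chr2:152105542-152105570, plus strand, reverse complement, beginning 28 bases after the start: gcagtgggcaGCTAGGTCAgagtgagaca

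Tranilast libraries had higher levels of 7 of the 10 genes and lower levels of 1, relative to control libraries. Slc7a11 and Srxn1 rose most, 2.51-fold and 2.30-fold, followed by Hmox1, Txnrd1, Gclm, Gclc and Nfe2l2 itself, whereas Keap1 fell. Gsr did not pass the test, and Nqo1 was close to absent from all libraries. The expression filter passed 9 of the 10 genes. The quasi-likelihood test of edgeR, adjusted over 10770 genes by the Benjamini-Hochberg method, called 8 of those 9 at an adjusted p-value below 0.05, and called 57.0% of all genes. Below, "edgeR adjusted p" is the value from that fit and SE is the standard error of the log2 fold change. Higher levels were called for 7 of the 9, against 28.2% of all genes, and a lower level for 1 of the 9, against 28.8%. The median log2 fold change of the 9 genes was 0.51, and that of all genes tested was 0.01. In 8 of the 9 the ranges of the groups were separate, as in 49.8% of all genes. The study required a log2 fold change of at least 1.5 in size. With this added to the adjusted p-value, 0 of the 9 were called, against 1.11% of all genes. An unadjusted p-value of the edgeR test under 0.05 was found for 8 of the 9, and for 6607 of the 10770 genes tested. Levels are given below as CPM, the CPM unit of edgeR, in which counts are divided by the library total after TMM scaling.

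**Figure D1:**
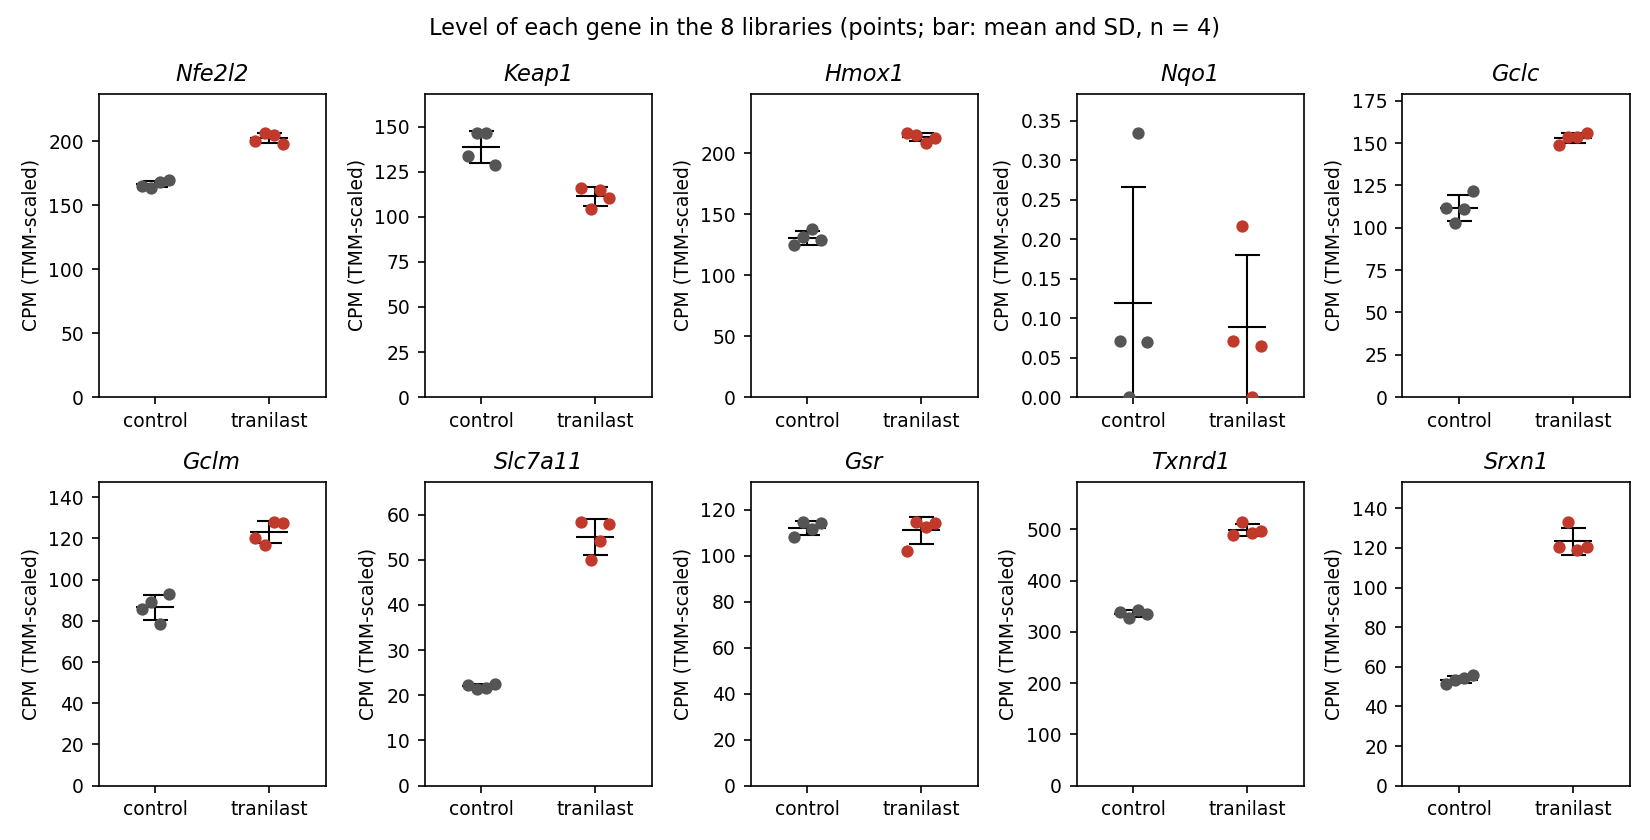
Level in CPM (y axis, from 0, TMM-scaled) of each of the 10 genes in the 4 control and the 4 tranilast libraries (x axis), with 1 point a library and bars for the mean and SD. The groups lie apart in 8 panels, overlap for Gsr, and for Nqo1 all libraries lie at or below 0.334 CPM.

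Nfe2l2 and Keap1, the factor and its inhibitor, moved in opposite directions. Nfe2l2 (ENSMUSG00000015839, chr2:75675513-75704641 of GRCm38) had 165.1, 163.7, 168.1 and 169.4 CPM in control replicates 1 to 4 and 199.9, 206.3, 204.8 and 197.8 CPM in tranilast replicates 1 to 4. Every tranilast library lay above every control library, and the mean rose from 167 ± 2.62 to 202 ± 3.99 CPM (mean ± SD, n = 4 each). The log2 fold change was 0.28 (SE 0.031, edgeR adjusted p = 5.3e-07), a 1.21-fold rise. Keap1 (ENSMUSG00000003308, chr9:21229730-21239361) had 133.8, 146.4, 146.3 and 128.9 CPM in the control libraries and 116.2, 104.4, 114.8 and 110.5 CPM in the tranilast libraries. The groups did not overlap, and the mean fell from 139 ± 8.89 to 111 ± 5.28 CPM (mean ± SD, n = 4 each). Its log2 fold change was -0.32 (SE 0.047, edgeR adjusted p = 1.6e-05). Among the log2 fold changes of all genes tested, Nfe2l2 stood at percentile 78.8 and Keap1 at percentile 14.3, so that many genes moved further in either direction. Exons of Keap1 share 510 bases with the antisense gene Gm16754, and no source used here states that strand was used in the counting, so that reads of these bases cannot be told apart.

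Slc7a11 encodes xCT, the subunit of the cystine and glutamate exchanger that brings in cystine, from which the cysteine of glutathione is made. It had the largest fold change of the 9 genes tested and also the lowest level per length among them. Slc7a11 (ENSMUSG00000027737, chr3:49892526-50443614) had 22.3, 21.4, 21.6 and 22.5 CPM in the control libraries and 58.4, 49.9, 54.1 and 57.8 CPM in the tranilast libraries. The lowest tranilast library, replicate 2, thus lay far above the highest control library. The log2 fold change was 1.33 (SE 0.062, edgeR adjusted p = 3.5e-12), or 2.51-fold with a 95% interval of 2.29 to 2.75. It stood at percentile 99.1 of the log2 fold changes of all genes tested.

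Gclc and Gclm encode the catalytic and the modifier subunit of glutamate-cysteine ligase, the rate-limiting enzyme of glutathione synthesis, and rose by similar amounts. Gclc (ENSMUSG00000032350, chr9:77754535-77794485) had 111.5, 102.7, 110.8 and 121.6 CPM in the control libraries and 148.7, 153.5, 153.3 and 155.9 CPM in the tranilast libraries. All 4 tranilast libraries were higher than all 4 control libraries, with a log2 fold change of 0.45 (SE 0.044, edgeR adjusted p = 8.2e-08). Gclm (ENSMUSG00000028124, chr3:122245557-122270732) had 85.9, 89.0, 78.7 and 93.1 CPM in the control libraries and 120.1, 116.9, 128.2 and 127.4 CPM in the tranilast libraries. Control replicate 3 was the lowest, the groups were apart, and the log2 fold change was 0.51 (SE 0.049, edgeR adjusted p = 8.4e-08). Exons of Gclm overlap those of Gm17494 by 296 bases and of Gm6061, annotated as a processed pseudogene, by 244 bases, so that part of its reads may be shared.

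Gsr encodes glutathione reductase, which returns oxidized glutathione to its reduced form with NADPH, and it was the 1 tested gene of the set with no called change. Gsr (ENSMUSG00000031584, chr8:33652523-33698163) had 108.1, 114.6, 111.8 and 114.2 CPM in the control libraries and 102.2, 114.8, 112.5 and 114.3 CPM in the tranilast libraries. The groups overlapped, and tranilast replicate 1 was the lowest of all 8. The log2 fold change was -0.016 (95% interval -0.10 to 0.07, edgeR adjusted p = 0.775), so that the interval covers changes between 0.93-fold and 1.05-fold. With library size alone in place of TMM the value was 0.10 (edgeR adjusted p = 0.0499).

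Txnrd1 and Srxn1 belong to the thioredoxin and peroxiredoxin branch. Txnrd1 encodes the cytosolic thioredoxin reductase and Srxn1 encodes sulfiredoxin, which repairs overoxidized peroxiredoxins. Txnrd1 (ENSMUSG00000020250, chr10:82833951-82897712) had 338.5, 326.9, 343.0 and 334.2 CPM in the control libraries and 489.0, 515.0, 492.9 and 497.5 CPM in the tranilast libraries. The spread within each group was small against the gap between them, and the log2 fold change was 0.57 (SE 0.027, edgeR adjusted p = 4.9e-12). Srxn1 (ENSMUSG00000032802, chr2:152105516-152111376) had 51.1, 53.1, 54.1 and 55.7 CPM in the control libraries and 120.4, 133.3, 118.7 and 120.7 CPM in the tranilast libraries. Tranilast replicate 2 stood above the other tranilast libraries, which lay close together, and the groups were far apart. The log2 fold change was 1.20 (SE 0.047, edgeR adjusted p = 2.4e-13), or 2.30-fold with a 95% interval of 2.15 to 2.46, and 1.17 without tranilast replicate 2.

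Hmox1 encodes heme oxygenase 1, which opens heme to biliverdin, iron and carbon monoxide and is repressed by BACH1. Hmox1 (ENSMUSG00000005413, chr8:75093621-75100589) had 124.4, 131.4, 138.0 and 128.6 CPM in the control libraries and 216.4, 214.8, 208.5 and 212.7 CPM in the tranilast libraries. Every tranilast library was higher than every control library, and the log2 fold change was 0.71 (SE 0.036, edgeR adjusted p = 1.1e-11), a 1.63-fold rise. Bach1, named after its value was seen, was also higher, with a log2 fold change of 0.29 (edgeR adjusted p = 0.00022). The activity of BACH1 was not tested.

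Nqo1 encodes NAD(P)H quinone dehydrogenase 1, a classical NRF2 target. Nqo1 (ENSMUSG00000003849, chr8:107388225-107403206) had 1, 0, 5 and 1 counts in the control libraries and 1, 3, 0 and 1 counts in the tranilast libraries. These counts lie near the limit of 3 that a count of 0 allows, which corresponds to 0.192 to 0.249 CPM and covers counting error only. The gene did not pass the filter, no fold change is given, and at this depth no difference could be detected (p = 0.77 in a two-sided exact permutation test on log2 of CPM plus 0.1).

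For each of the 8 called genes the exact two-sided permutation test gave p = 0.0286, the smallest that 4 libraries against 4 allow. Separate ranges of the groups always give this value, and 49.8% of all genes had them. The test therefore adds nothing to the separation given above. All 8 kept their direction and an adjusted p-value under 0.05 in each of 18 alternatives, which were other tools, scaling factors, filters and units, a replicate block and the omission of each library in turn. The log2 fold change lay between 1.30 and 1.60 for Slc7a11, between 1.17 and 1.32 for Srxn1, between 0.68 and 0.82 for Hmox1, between 0.27 and 0.40 for Nfe2l2 and between -0.35 and -0.16 for Keap1.

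**Figure D2:**
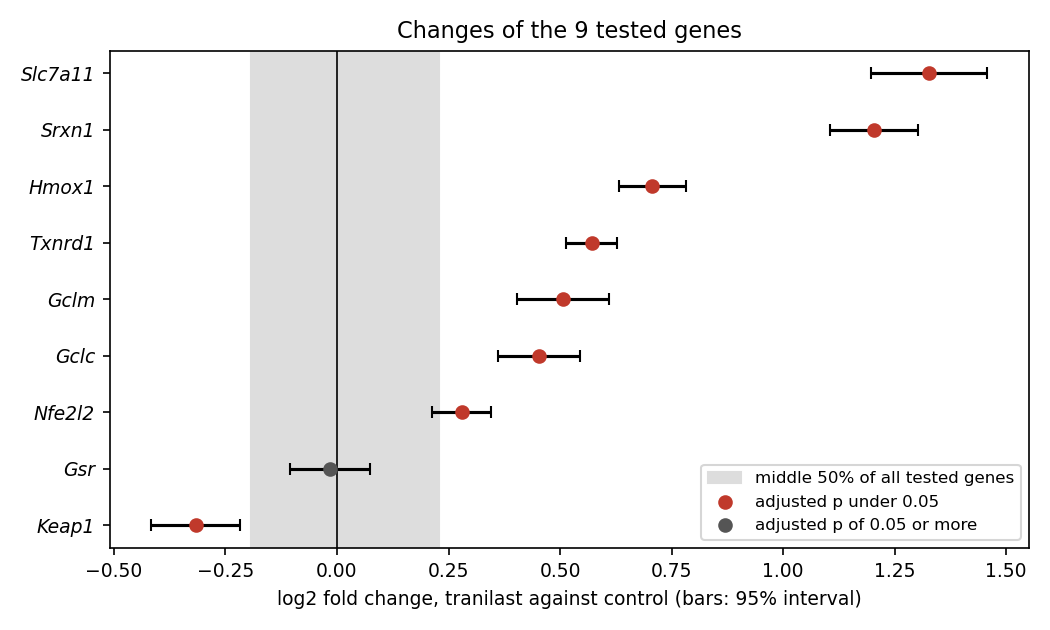
Log2 fold change of tranilast against control libraries (x axis) for the 9 genes tested, with 95% intervals of the edgeR fit as bars and the middle 50% of all genes tested, from -0.19 to 0.23, as a gray band. The points of all genes other than Gsr lie outside the band, 7 above and Keap1 below, and the interval of Nfe2l2 reaches into it.

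**Figure D3:**
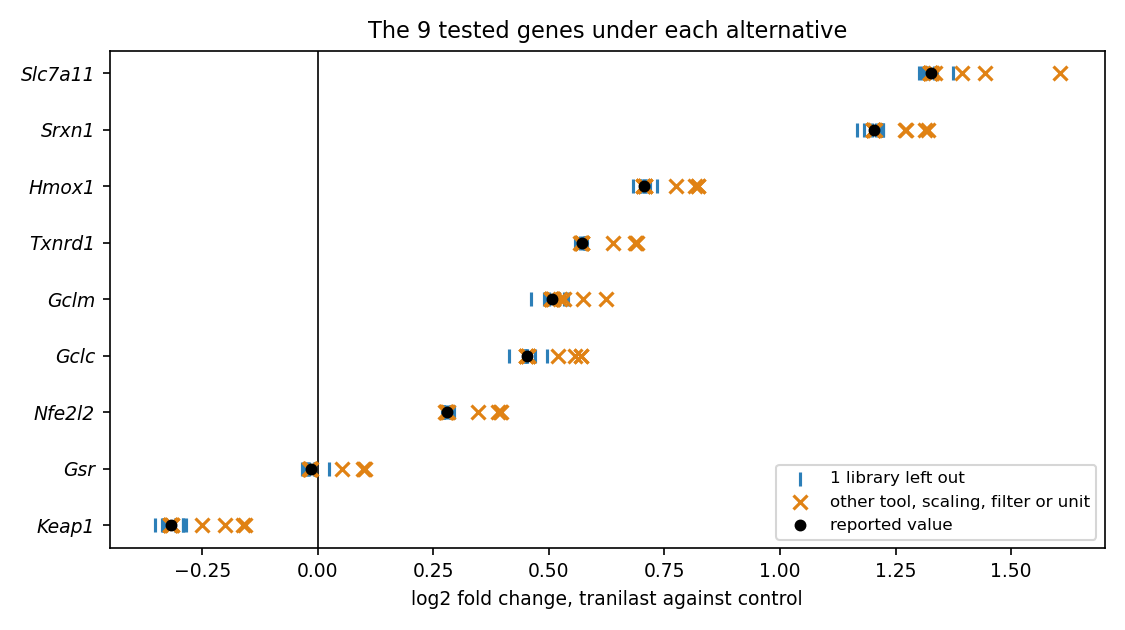
Log2 fold change (x axis) of the same 9 genes as reported, with 1 library left out in turn, and under the other tools, scaling factors, filters and units. Only the marks of Gsr fall on both sides of 0, and the mark farthest from its reported value is that of Slc7a11 at 1.60.

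Levels can be compared between genes only per length, for which the deposited FPKM values were used. In the control libraries Txnrd1 had the highest mean FPKM of the 10 genes, with 114 ± 2.12 (SD, n = 4), followed by Hmox1 with 79.9 ± 3.28 and Nfe2l2 with 64.6 ± 1.10. Gclm with 46.8 ± 5.09, Keap1 with 43.0 ± 2.35 and Gsr with 40.3 ± 0.976 came next, and their libraries overlapped, so that these neighbors did not differ beyond their spread. Gclc with 31.3 ± 2.26, Srxn1 with 18.3 ± 0.642, Slc7a11 with 2.58 ± 0.285 and Nqo1 with 0.0733 ± 0.0908 closed the order. With tranilast the order of the 4 highest was kept, at 184 ± 5.31 for Txnrd1, 141 ± 2.28 for Hmox1, 85.0 ± 1.72 for Nfe2l2 and 67.5 ± 4.10 for Gclm. Gclc with 46.5 ± 1.06, Srxn1 with 45.6 ± 2.58, Gsr with 43.2 ± 2.44 and Keap1 with 38.4 ± 1.65 followed. Each of these overlapped its neighbor in the order, whereas Gclc and Gsr did not overlap. The mean of Keap1 moved from place 5 to place 8 of 10, and Slc7a11 had 8.03 ± 0.200.

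Ratios of FPKM within a library do not depend on how libraries are scaled. They do depend on the length that each FPKM value used, which varied between libraries for Keap1, Gclm and Txnrd1, as given below. The ratio of Nfe2l2 to Keap1 was 1.54, 1.39, 1.46 and 1.63 in the control libraries and 2.09, 2.38, 2.18 and 2.22 in the tranilast libraries. Nfe2l2 was thus the more abundant of the pair in every library, and the groups were apart. Srxn1 to Gsr rose from 0.454 ± 0.0106 (SD, n = 4) to 1.06 ± 0.0633, and Txnrd1 to Gsr from 2.83 ± 0.112 to 4.26 ± 0.187, again without overlap. Gclc to Gclm, the ratio of the ligase subunits, was 0.676 ± 0.0884 in the control libraries and 0.689 ± 0.0297 in the tranilast libraries, and the groups overlapped. In counts, which use no length, Gclc to Gclm was 1.29 ± 0.105 and 1.24 ± 0.0498, again with overlap. Nfe2l2 to Keap1 in counts was 1.20 ± 0.0882 and 1.82 ± 0.110, without overlap. These pairs were chosen after the values were seen and were not tested.

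**Figure D4:**
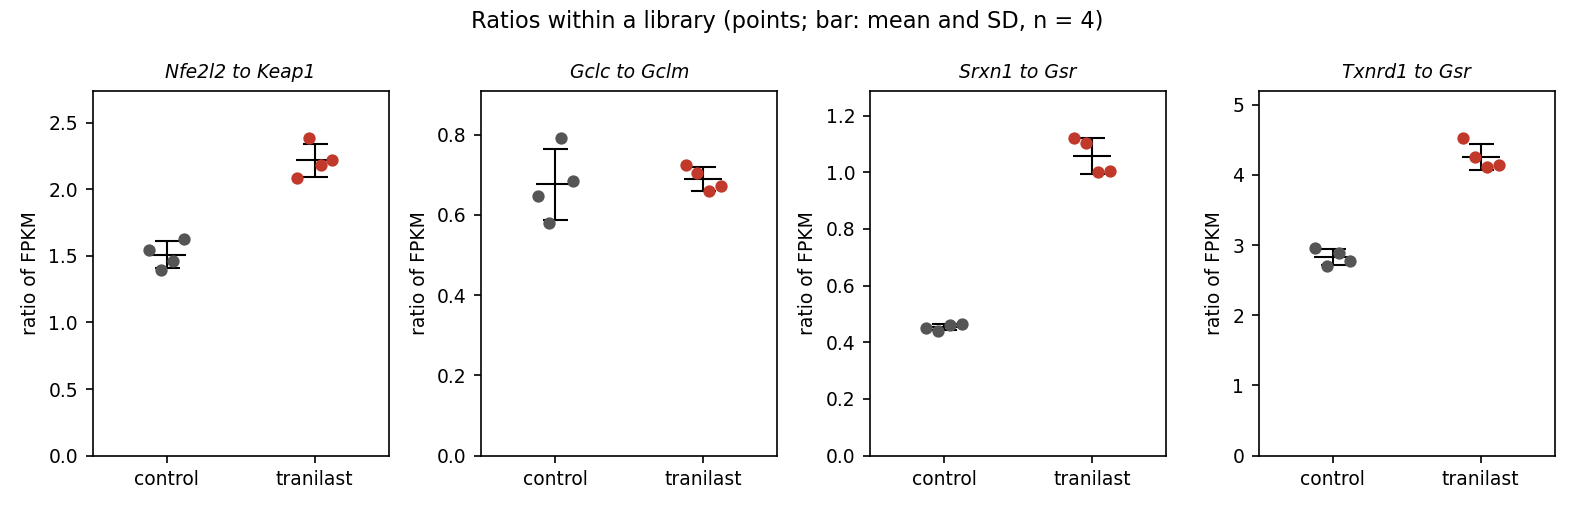
Ratio of the FPKM values of 2 genes within each library (y axis, from 0) in the control and tranilast groups (x axis), with 1 point a library and bars for the mean and SD. The points of both groups mix for Gclc to Gclm and lie apart for Nfe2l2 to Keap1, Srxn1 to Gsr and Txnrd1 to Gsr.

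The length that the deposited FPKM values imply, found by solving the FPKM formula for length, was fixed for some genes and varied for others. It was 2475 bases in all 8 libraries for Nfe2l2, 1569 for Hmox1, 3423 for Gclc, 2673 for Gsr and 2812 for Srxn1, and each of these equals the length of the only coding transcript of that gene in GENCODE M21. Slc7a11 has annotated coding transcripts of 2419 to 9223 bases, and its implied length was between 6933 and 8931 bases in the control libraries and between 6506 and 7584 bases in the tranilast libraries. The groups overlapped through control replicate 3, the lowest control library. Over the 8 libraries the implied length also varied from 2986 to 3146 bases for Keap1, from 1706 to 2002 for Gclm and from 2812 to 2845 for Txnrd1. With the shorter implied lengths, the mean FPKM of Slc7a11 was 3.11-fold higher with tranilast, whereas the fitted counts gave 2.51-fold. For Nfe2l2, whose implied length was fixed, the mean FPKM gave 1.32-fold and the fitted counts 1.21-fold, since FPKM divides by the library total without TMM factors.

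The other genes of the system were taken from 7 lists of 125 genes in all, of which 95 passed the filter and 62 were called by edgeR, 40 higher and 22 lower. With library size alone in place of TMM, which raised the median log2 fold change of all genes by 0.12, 54 were higher and 6 lower. Their called share was 65.3% of those tested, beside 57.0% of all genes, and their median log2 fold change was 0.08.

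Among regulators of NRF2 or of its binding element, 10 of 12 genes were tested, 5 were higher and 1 lower. Sqstm1, which encodes p62, a cargo receptor of autophagy that also binds KEAP1, rose most, from 252, 261, 264 and 268 CPM in the control libraries to 774, 799, 721 and 788 CPM in the tranilast libraries. Its log2 fold change of 1.56 (SE 0.033, edgeR adjusted p = 9.9e-17) was larger than that of any of the 9 genes above. Btrc, an adaptor of another ubiquitin ligase that acts on NRF2, had 0.33 (edgeR adjusted p = 0.0044). Cul3, which encodes the scaffold of the KEAP1 ligase, had -0.14 (edgeR adjusted p = 0.0044) and -0.027 (edgeR adjusted p = 0.572) with library size alone. The median of the list was 0.16.

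Genes of glutathione synthesis and turnover numbered 15, of which 13 were tested, 7 higher and 2 lower, with a median log2 fold change of 0.25. Cth, the enzyme that makes cysteine from cystathionine, rose from 4.90 ± 1.06 to 10.4 ± 1.92 CPM (mean ± SD, n = 4 each), with a log2 fold change of 1.09. Slc25a40, a mitochondrial carrier, had 0.68 (edgeR adjusted p = 2.0e-06). Chac2, which cleaves glutathione, and Lap3, an aminopeptidase, had -0.46 and -0.13 with adjusted p-values of 0.044 and 0.029, and neither was called with library size alone. Chac2 kept its call in 6 of the 18 alternatives and Lap3 in 9. Chac1, of the same glutathione-cleaving family, lay under the count minimum for named genes and is given after its value was seen. It rose from 1.63 ± 0.313 to 4.06 ± 0.636 CPM (mean ± SD, n = 4 each), with the largest log2 fold change of the list, 1.32 (edgeR adjusted p = 5.0e-05).

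Of 41 genes that use glutathione, 21 were tested, 9 were higher and 4 lower, with a median log2 fold change of 0.16. The 20 not tested include most alpha and mu class glutathione S-transferases. Gpx1, the abundant cytosolic glutathione peroxidase, fell from 283, 294, 309 and 297 CPM in the control libraries to 191, 191, 195 and 170 CPM in the tranilast libraries. Its log2 fold change was -0.66 (SE 0.040, edgeR adjusted p = 1.4e-10), the lowest of the 95 genes, and was between -0.69 and -0.55 over all 18 alternatives. Glrx, which encodes glutaredoxin, also fell, by 0.50 on the log2 scale (edgeR adjusted p = 5.2e-08). Abcc5, an exporter of organic anions, and Gstt3, a theta class transferase, were higher with 0.66 and 0.62.

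The thioredoxin and peroxiredoxin list held 14 tested genes of 15, with 4 higher, 5 lower and a median of 0.02. Msrb1, a methionine sulfoxide reductase, rose by 0.57 on the log2 scale (edgeR adjusted p = 3.0e-06), and Txnrd3, a further thioredoxin reductase, by 0.55 (edgeR adjusted p = 0.042), a call kept in 13 of the 18 alternatives. The peroxiredoxins Prdx5 and Prdx4 were lower with -0.25 and -0.19. Prdx4 was not called with library size alone (-0.074, edgeR adjusted p = 0.197). Prdx1, the peroxiredoxin of the list with the most counts and named after its value was seen, rose by 0.13 on the log2 scale (edgeR adjusted p = 0.0035).

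All 11 genes of NADPH supply were tested, 3 were higher and 3 lower, and the median was -0.043. The called share, 54.5%, was close to the 57.0% of all genes. Idh1, the cytosolic NADP-dependent isocitrate dehydrogenase, rose from 88.6 ± 3.35 to 133 ± 5.10 CPM (mean ± SD, n = 4 each), with a log2 fold change of 0.59 (edgeR adjusted p = 9.9e-10). Me1, malic enzyme, had 0.20. Of the pentose phosphate pathway, Tkt and Pgls had -0.20 and -0.18, and Pgd, named after its value was seen, had 0.13 (edgeR adjusted p = 0.00033). G6pdx and Taldo1 of that pathway had 0.049 and 0.063 and were not called with TMM, the scaling to which all 3 of these values apply. Pgls was not called with library size alone (-0.067, edgeR adjusted p = 0.199).

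In the list of heme, iron and carbonyl handling 16 of 18 genes were tested, 8 were higher and 4 lower, with a median of 0.30. Ftl1, the ferritin light chain, rose from 2235 ± 68.2 to 4406 ± 205 CPM (mean ± SD, n = 4 each), with a log2 fold change of 0.98 (edgeR adjusted p = 4.5e-15). Reads of ferritin genes may be shared with processed pseudogenes. Ephx1, microsomal epoxide hydrolase, had 0.94, while Nqo2, the paralog of Nqo1, and Akr1b3, aldose reductase, had -0.26 and -0.23. Nqo2 was not called with library size alone (-0.14, edgeR adjusted p = 0.137).

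Among enzymes of superoxide and peroxide 10 of 13 genes were tested, 4 higher and 3 lower, with a median of 0.02. Cat, which encodes catalase, rose from 86.9 ± 0.658 to 122 ± 4.36 CPM (mean ± SD, n = 4 each), with a log2 fold change of 0.49 (edgeR adjusted p = 3.9e-09). Cyba and Rac2 of the NADPH oxidase of phagocytes had -0.19 and -0.21. Cyba was not called with library size alone (-0.077, edgeR adjusted p = 0.0676). Rac2 changed direction, reaching 0.20 with the deposited FPKM. It was the only gene to do so among those named for the 2 highest or 2 lowest called changes of each list.

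**Figure D5:**
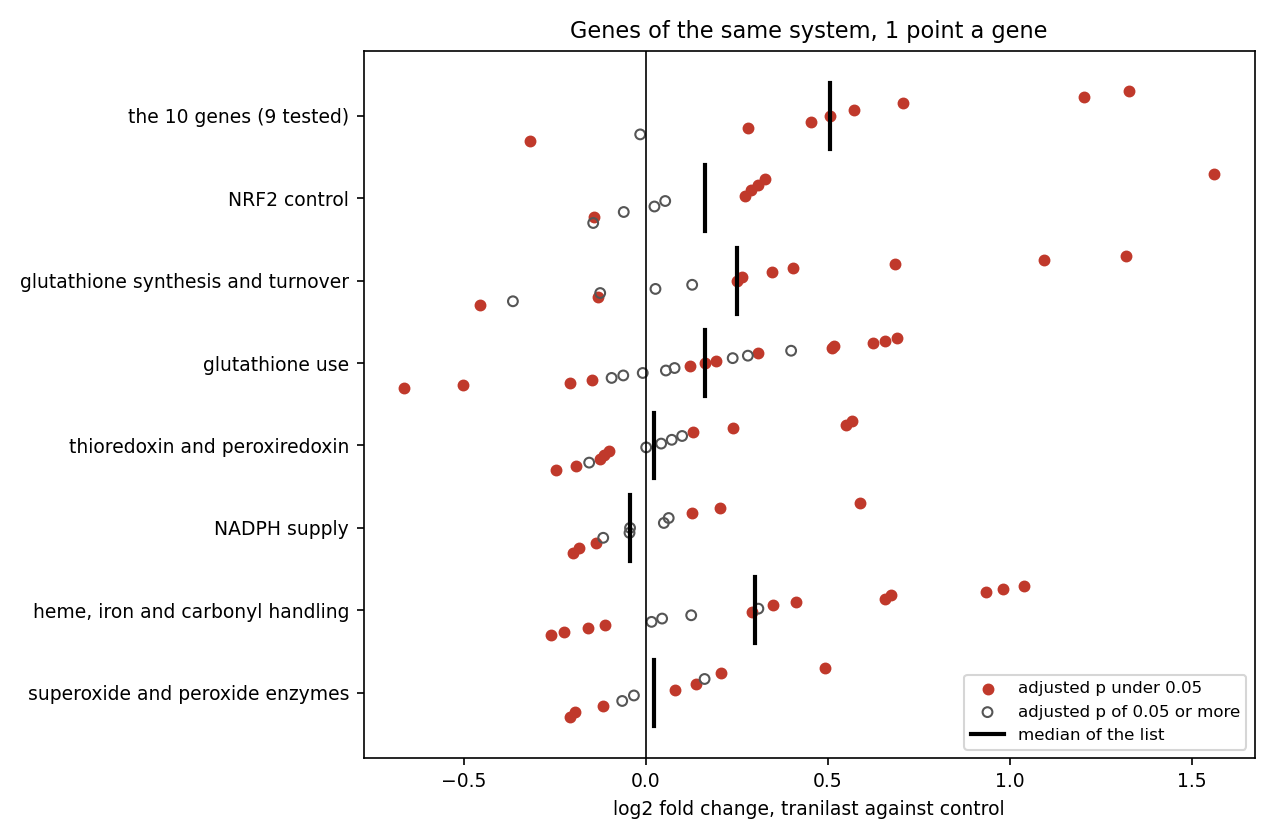
Log2 fold change of tranilast against control libraries (x axis) for the 9 tested genes in the top row and the tested genes of the 7 lists below it, with 1 point a gene, filled where the adjusted p-value was under 0.05, and a bar at the median of each row. Medians run from -0.043 for NADPH supply to 0.30 for heme, iron and carbonyl handling, beside 0.51 in the top row.

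In the deposited KEGG annotation, Slc7a11, Gclc, Gclm and Hmox1 share the Ferroptosis pathway, and Gclc, Gclm and Gsr share Glutathione metabolism. Without the genes described here, 30 genes of Ferroptosis were tested, 16 higher and 8 lower, and 32 genes of Glutathione metabolism were tested, 14 higher and 7 lower. Called shares were 80.0% and 65.6%, beside 57.0% of all genes, of which 28.2% were higher and 28.8% lower. These pathways were picked after the values were seen and were not tested as sets.

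Over the 8 libraries, the patterns most like that of Nfe2l2 by Pearson's r of log2 CPM included those of Tcp11l1 (r = 0.998) and Acss2 (r = 0.994). For Hmox1 they were Fndc10 (r = 0.999), Fth1, the ferritin heavy chain (r = 0.998), and Atp6v0a1, a subunit of the vacuolar proton pump (r = 0.997). These values are a description across 8 libraries that fall into the 2 groups, so that any gene with a clear difference between the groups comes near them.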

How the data were processed

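RNA-seq had been carried out on 8 mouse libraries. Per the study's methods, mRNA was selected by its poly-A tail, the TruSeq kit gave paired-end libraries, and the instrument was a HiSeq X-ten, where the labels have NovaSeq. Each gene has an estimated count, which can be fractional, and an FPKM value, which the authors scaled by transcript length and library total; both were deposited by the authors. Aligner, counting tool and genome build are not given in the sources used here. The table holds no columns of per-library values that were left unused.

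Counts were rounded, filtered with filterByExpr, scaled by TMM and compared in edgeR 4.0.16 (glmQLFit and glmQLFTest, group only) with Benjamini-Hochberg adjustment over 10770 genes. The study used limma with a log2 fold change of at least 1.5 in either direction. Here limma-voom (limma 3.58.1) and DESeq2 1.42.0 were run as alternatives in R 4.3.3, beside RLE and upper-quartile factors, library size alone, limma on log2 FPKM plus 1 or 0.1, no filter, a filter of 10 counts in every library, a replicate block and the omission of each library. The standard error is the log2 fold change divided by the square root of the F statistic. Single genes were compared by an exact permutation test of log2 CPM with 0.1 added. The main fit used no pairing by replicate number, since correlations over all genes tested showed none, which does not exclude it (the closing section gives the values). Genes of the 7 lists were named when among the 2 highest or 2 lowest log2 fold changes of called genes with a mean count of at least 50. For Nfe2l2 and Hmox1 the 3 genes with the highest Pearson's r were named. Some genes that these rules name are not reported here. The genes and lists were chosen with earlier results of these data known. Coordinates are 1-based, from GENCODE M21 on GRCm38, matched by Ensembl identifier. The code was tested on simulated data.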

Additional observations from a re-analysis of the deposited data

Results flagged for a closer look

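Single libraries stood far from the other 3 of their group in 5 of the 72 groups examined, which were the control and the tranilast libraries of 36 genes, and chance gives about 1 in 20. The gap to the nearest library, as a share of the range of the group on the log2 CPM scale, was 0.858 for Srxn1 in tranilast replicate 2, which had 7.06 where the others had 6.89 to 6.92. It was 0.935 for Btrc in control replicate 4 (3.61 against 3.83 to 3.85) and 0.850 for Gpx1 in tranilast replicate 4 (7.41 against 7.58 to 7.61). It was 0.897 for Ftl1 in control replicate 2 (11.19 against 11.10 to 11.11) and 0.846 for Ephx1 in control replicate 3 (3.20 against 2.67 to 2.75). The libraries differ from gene to gene, and in each of these 5 genes the tranilast and control groups did not overlap.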

How the results depend on the processing

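Of the 10 genes, 8 were called under TMM, and 8 or 9 under each of the 18 alternatives. Gsr turned from -0.016 to 0.052 with upper-quartile factors, 0.10 with library size alone, 0.097 and 0.099 with the log2 of FPKM plus 1 and plus 0.1, and to between -0.034 and 0.025 with each library left out. At the threshold of 1.5 on the log2 fold change, 1 gene, Slc7a11, was called with the log2 of FPKM plus 0.1. Genes of the 7 lists called lower, 22 with TMM, numbered 12 with upper-quartile factors, 6 with library size alone and 3 with either form of FPKM. All genes called higher, 3039 with TMM, were 4613 with library size alone, so that their share of the calls went from 49.5% to 70.9%. For the genes of the lists this share went from 64.5% to 90.0%. With the replicate block, 8 of the 10 genes and 60 genes of the lists were called, and 6009 of all genes. Deviations from the group means of libraries with the same number correlated between -0.057 and 0.10, and those of other pairs between -0.18 and 0.19. Of the 8 libraries, 1 correlated best with its own number. Over all genes tested the numbers thus showed no pairing, but weak correlations over so many genes cannot exclude a shared source. Nnt of the NADPH supply list, named after its values were seen, followed the numbers. It had 44.6, 29.8, 48.7 and 22.7 CPM in control replicates 1 to 4. In tranilast replicates 1 to 4 it had 43.3, 31.6, 43.8 and 23.4 CPM. Whether libraries of the same number share a source was not tested. With 1 added to CPM in place of 0.1, the permutation test of the 10 genes gave its smallest p-value for the same number, 8, as it must where ranges are separate. Depth limits Nqo1.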
